A study of Mus musculus with 15 samples.

Results

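Malat1, Neat1, Miat and Snhg11 are long noncoding RNAs that stay largely in the nucleus. Of these 4 genes, Malat1 was measured by 1 probe set and Snhg11 by 2, which makes 3 of the 21789 probe sets that carry a single gene symbol. They were chosen by symbol from the platform annotation of the array. That annotation names Neat1 and Miat on no probe set used here, so these RNAs were not analysed here.

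RNA was taken on postnatal day 9 from the right hippocampus of 15 C57BL/6 pups, all male, and each RNA was read on its own Affymetrix Mouse Gene 1.0 ST array, which reports 1 brightness per probe set. The groups, 3 pups each, were untreated controls (CC) and 4 treated groups. Under mild stress pups received saline (MSS) or morphine, an opioid (MSM), and under severe stress likewise saline (SSS) or morphine (SSM). The pups were treated from postnatal day 5 to day 9, in litters of at most 7 per dam. What either stress consisted of, the morphine dose and which pups were littermates were not known here, and p-values therefore measure only the spread between these arrays.

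Malat1 is one of the most abundant nuclear RNAs of mammalian cells and gathers at nuclear speckles, where splicing factors are stored. Its 3′ end is not made by ordinary polyadenylation: RNase P cuts it, and a triple helix protects it. Neat1, its neighbour in the genome, is the scaffold of paraspeckles, nuclear bodies that retain RNA. Miat, also called Gomafu, forms separate nuclear foci in neurons and binds splicing factors such as SF1. Snhg11 is the host gene of small nucleolar RNAs, which are cut from its introns, and its spliced RNA is found mainly in neurons.

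The promoters of both measured genes are shown because the levels of their RNAs were correlated over the arrays. Each runs from 250 bases before the annotated start to 50 bases after it, 5′ to 3′ on the gene's strand, in RefSeq's annotation of GRCm38.p6, and capitals mark the transcribed part. Malat1 lies on chr19:5802623-5802922 (minus strand) and Snhg11 on chr2:158375463-158375762 (plus strand).
Malat1: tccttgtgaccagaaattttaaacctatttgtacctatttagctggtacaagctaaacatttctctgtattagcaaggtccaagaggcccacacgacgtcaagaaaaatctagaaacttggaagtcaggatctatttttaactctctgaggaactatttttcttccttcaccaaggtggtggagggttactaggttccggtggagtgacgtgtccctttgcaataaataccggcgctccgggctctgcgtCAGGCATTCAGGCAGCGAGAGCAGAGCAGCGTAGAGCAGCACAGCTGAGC
Snhg11: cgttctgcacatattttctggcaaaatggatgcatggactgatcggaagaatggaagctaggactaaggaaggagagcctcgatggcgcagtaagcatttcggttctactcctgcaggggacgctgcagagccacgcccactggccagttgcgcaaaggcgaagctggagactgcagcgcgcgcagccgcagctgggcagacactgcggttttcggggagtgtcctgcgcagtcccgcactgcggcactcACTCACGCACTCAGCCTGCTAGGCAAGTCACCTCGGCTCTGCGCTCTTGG
The Malat1 window was 47% G and C and held 10 CpG dinucleotides, and the Snhg11 window was 60% G and C and held 21, against medians of 52.7% and 7 over the 32851 promoters in the table. Neither window held, on either strand, the letters TATAAA (held by 13.6% of all promoters), the letters CCAAT (37.4%) or the GC box GGGCGG (35.7%). Nor did they hold CACGTG (E-box, 7.15%), TGACGTCA (cyclic AMP response element, 1.79%) or AGAACA (the core of a glucocorticoid response element, 19%).

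The arrays resembled one another, with pairwise correlations over all rows from 0.988 to 0.997 and no identical pair. Array medians lay between 5.41 and 5.51 on the log2 scale except in SSM replicate 3 (5.60). The median difference over all probe sets was 0.028 to 0.062 in the contrasts that contain SSM, and without SSM replicate 3 the severity differences given below were -0.69 for Malat1 and -0.63 and -0.65 for Snhg11. Markers of hippocampal neurons were present on every array (Prox1 7.81 to 9.10, Neurod6 7.37 to 9.62, Camk2a 10.14 to 11.51). Genes of bordering tissue were high on some arrays. Tcf7l2 of the thalamus was highest in MSM replicate 3 (9.85), and Penk and Drd1 of the striatum in SSM replicate 1 (11.40 and 9.72). The mean of 8 striatum markers was 9.40 in SSM replicate 1, 8.22 in CC replicate 1 and 7.60 in MSM replicate 2. On the other arrays it was 6.41 to 7.05. In such tissue RNA, fewer cells of a type and less RNA per cell cannot be told apart.

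On its single-symbol probe set, Malat1 was lower in the pups under severe stress than in those under mild stress, and close to the untreated level under mild stress. A further probe set, annotated to both Malat1 and Ramp2, was nearly constant (13.03 to 13.19) and is described at the end. The log2 intensity of the Malat1 probe set was 11.51, 11.07 and 11.24 in CC replicates 1 to 3, 11.25, 11.48 and 11.26 in MSS, and 11.29, 11.26 and 11.38 in MSM. Under severe stress it was 9.83, 10.96 and 11.21 in SSS and 10.70, 10.46 and 10.53 in SSM. All 6 severe-stress arrays lay below all 6 mild-stress arrays, whereas the lowest control, CC replicate 2, lay below SSS replicate 3. The group means ± SD (n = 3) were 11.27 ± 0.22 for CC, then 11.33 ± 0.13 (MSS) and 11.31 ± 0.062 (MSM), and for severe stress 10.67 ± 0.74 (SSS) and 10.57 ± 0.12 (SSM). The SD in SSS came mostly from replicate 1, the lowest Malat1 value of the 15 arrays. In order, the levels ran from SSM and SSS up to CC, MSM and MSS, and no neighbours in this order differed by more than the larger of their SDs.

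**Figure D1:**
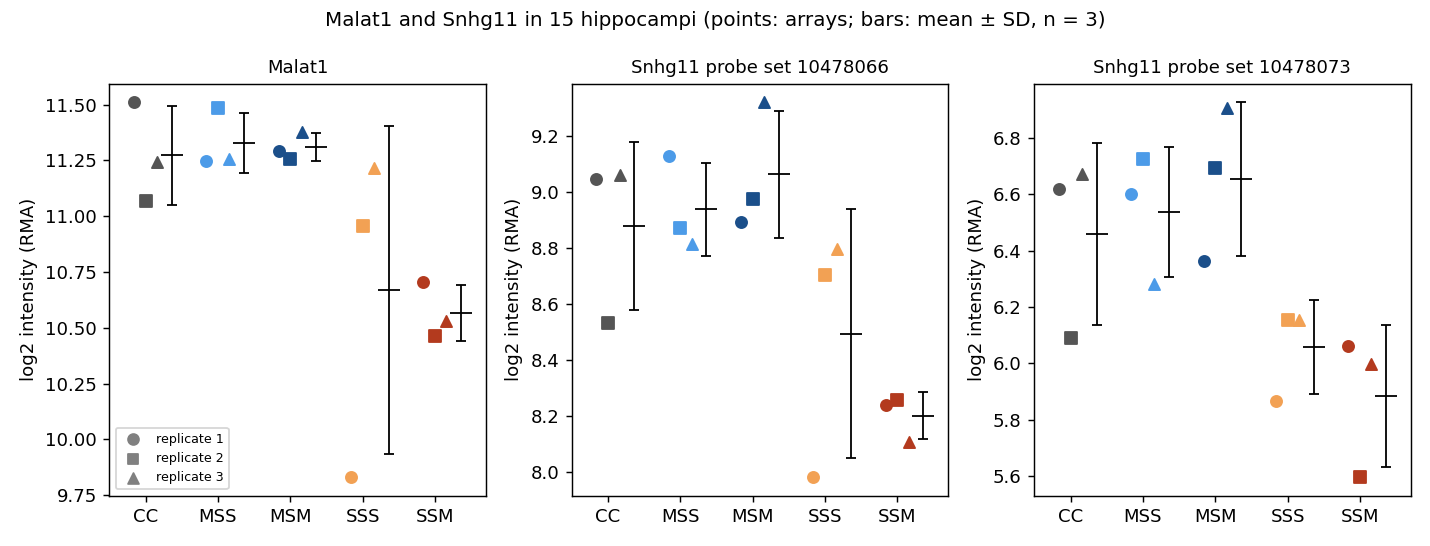
Log2 intensity (RMA) of the Malat1 probe set and of both Snhg11 probe sets on each of the 15 arrays, by group, with a marker shape per replicate number and bars for the mean ± SD (n = 3). The severe-stress groups SSS and SSM lie below both mild-stress groups in each panel, and SSS replicate 1 (9.83 for Malat1) is the lowest Malat1 value.

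Snhg11 was also lowest in SSM, then SSS, then CC in both of its probe sets, with MSS and MSM above and MSM highest. Probe set 10478066, the brighter, was 9.05, 8.53 and 9.06 in CC, 9.13, 8.87 and 8.82 in MSS, and 8.89, 8.98 and 9.32 in MSM. It was 7.98, 8.70 and 8.80 in SSS and 8.24, 8.26 and 8.11 in SSM. The highest severe-stress array (8.797) was only just below the lowest mild-stress array (8.816), and CC replicate 2 lay among the SSS values. Probe set 10478073 was 6.62, 6.09 and 6.67 in CC, 6.60, 6.73 and 6.28 in MSS, and 6.36, 6.69 and 6.90 in MSM. In SSS it was 5.87, 6.15 and 6.16, and in SSM 6.06, 5.60 and 6.00. Here too no severe-stress array reached the lowest mild-stress array, and CC replicate 2 was again the only control within the severe-stress range. The group means ± SD of the brighter probe set were 8.88 ± 0.30, 8.94 ± 0.17, 9.06 ± 0.23, 8.49 ± 0.45 and 8.20 ± 0.083 in CC, MSS, MSM, SSS and SSM. Those of the dimmer were 6.46 ± 0.32, 6.54 ± 0.23, 6.65 ± 0.27, 6.06 ± 0.17 and 5.89 ± 0.25. The annotation lists a cDNA record common to both probe sets, so they are not independent measurements of Snhg11.

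The severity contrast is the log2 difference between severe and mild stress, averaged over saline and morphine. Malat1 differed by -0.70 (SE 0.17, 1.63-fold lower intensity), which did not pass the test across all probe sets (limma, adjusted p = 0.120, unadjusted p = 0.00104). The Snhg11 probe sets differed by -0.65 (SE 0.13, 1.57-fold) and -0.62 (SE 0.125, 1.54-fold), with an adjusted p of 0.0847 for each (unadjusted p = 2.27e-04 and 1.77e-04). The threshold was an adjusted p of 0.05, and 0.0229% of all probe sets passed it in this comparison (5 of 21789), 0.0184% being lower (4); 12.4% had an unadjusted p under 0.05. Only 6 probe sets had a more negative difference than Malat1, and 10 and 13 had one more negative than those of Snhg11. Over all probe sets the median difference was 0.035. The severe-stress arrays lay below the mild-stress arrays without overlap in all 3 member probe sets and in 0.468% of all probe sets (102 of 21789).

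Within each drug the direction was the same. Between SSM and MSM, Malat1 differed by -0.74 (SE 0.24, adjusted p = 0.226) and Snhg11 by -0.86 (SE 0.19) and -0.77 (SE 0.18) (limma, adjusted p = 0.152 each). In that comparison 0% of probe sets passed, 14.5% had an unadjusted p under 0.05 and 2.59% were lower at it, the 3 member probe sets among them. The SSM arrays lay below the MSM arrays without overlap in these 3 and in 2.89% of all probe sets. Between SSS and MSS the differences were -0.66 (SE 0.24) for Malat1 and -0.44 (SE 0.19) and -0.48 (SE 0.18) for Snhg11 (limma, adjusted p = 1 each, with 0% of probe sets past the threshold and 3.07% at an unadjusted p under 0.05). All 3 probe sets were lower in SSS without overlap, as were 4.64% of all probe sets. Without SSS replicate 1 they were -0.24 for Malat1 and -0.19 and -0.38 for Snhg11. SSS replicate 1 is in neither group of the SSM and MSM comparison. Without it Malat1 and the brighter Snhg11 probe set passed there (limma, adjusted p = 0.0284 and 0.0480), with the differences as before. In that fit 13 of all probe sets passed. Over both drugs the severity differences without that array were -0.49, -0.52 and -0.57, and none passed (limma, adjusted p = 0.0665, 0.119 and 0.185).

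The titles of the samples hold an SS number of unstated meaning, which is 12 for all CC arrays, 11 for all mild-stress arrays and 8 to 10 for the severe-stress arrays. The stress level and this number cannot be told apart. Malat1 lay between 10.70 and 11.21 on the 2 arrays of SS 8, between 10.46 and 10.53 on those of SS 9, and between 9.83 and 10.96 on those of SS 10. A random block on the SS number cannot change the severity differences in this layout. With it the adjusted p became 0.255 for Malat1 and 0.214 for each Snhg11 probe set (limma). Without MSM replicate 3 and SSM replicate 1 the differences were -0.72, -0.60 and -0.60 (limma, adjusted p = 0.167, 0.142 and 0.121).

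**Figure D2:**
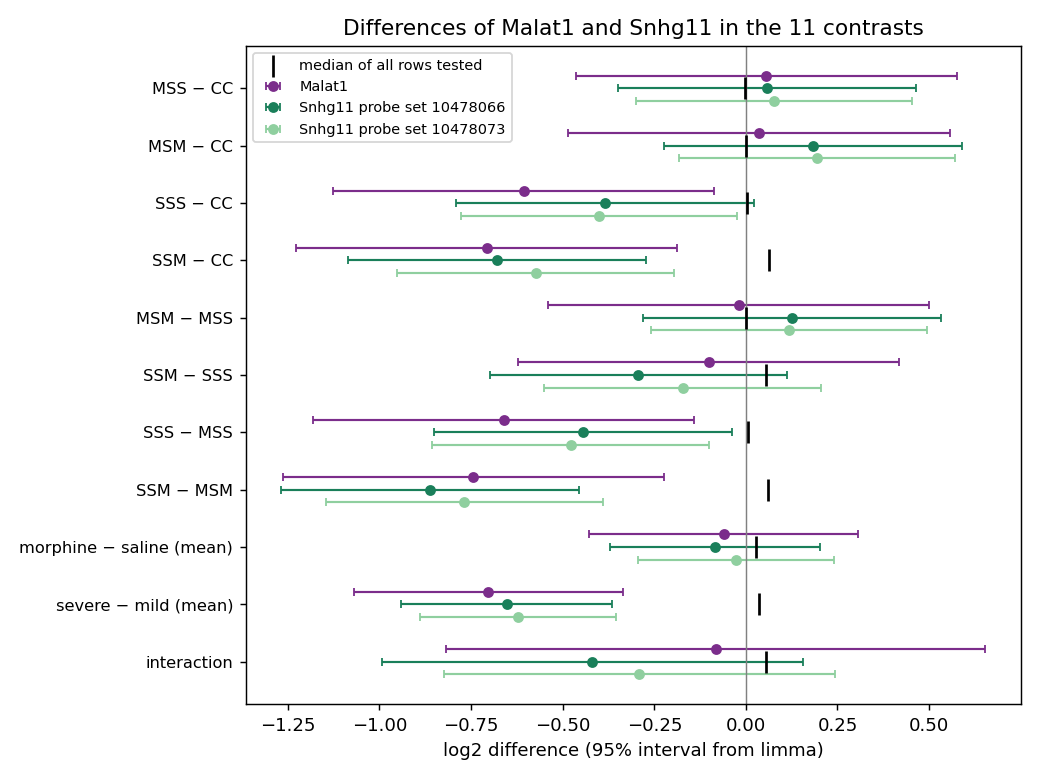
Log2 differences of Malat1 and both Snhg11 probe sets in the 11 contrasts, with 95% intervals from limma on the horizontal axis, and the median over all 21789 probe sets as a black tick. The intervals of the severity contrast lie below 0 for all 3 probe sets (Malat1 -1.07 to -0.33), while those of the morphine contrast include 0.

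Against the untreated pups, the severe-stress groups had the lower values. In SSM Malat1 differed from CC by -0.71 (SE 0.24, limma, adjusted p = 0.533) and Snhg11 by -0.68 (SE 0.19) and -0.57 (SE 0.18) (adjusted p = 0.511 each), and all SSM arrays lay below all CC arrays. Such a lower position without overlap was found in 1.54% of all probe sets, while 0% passed the threshold and 9.15% had an unadjusted p under 0.05. In SSS the differences from CC were -0.61 (SE 0.24), -0.39 (SE 0.19) and -0.40 (SE 0.18), with overlapping groups and an adjusted p of 1 (0% of probe sets passed, 2.11% had an unadjusted p under 0.05). Without SSS replicate 1 the first was -0.19, the second -0.13 and the third -0.30. The mild-stress groups differed from CC by 0.036 to 0.055 for Malat1 and by 0.058 to 0.19 for Snhg11, within the spread of the arrays and with an adjusted p of 1 (0% of probe sets passed, and 2.31% in MSS and 3.06% in MSM had an unadjusted p under 0.05). These comparisons share the CC arrays. A test over all 5 groups at once called none of the 3 probe sets (limma F-test, adjusted p = 0.543, 0.512 and 0.512), and 0% of probe sets passed, with 7.49% at an unadjusted p under 0.05.

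Morphine and saline were compared within each stress level and on average. Averaged over both levels the difference was -0.060 (SE 0.17) for Malat1 and -0.084 (SE 0.13) and -0.028 (SE 0.125) for Snhg11 (limma, adjusted p = 0.947, 0.889 and 0.966; 0% of probe sets passed, 7.72% at an unadjusted p under 0.05). The 95% intervals of this average were -0.43 to 0.31, -0.37 to 0.20 and -0.29 to 0.24, and the severity differences lie outside them. This holds for the average only. For SSM minus SSS the intervals were -0.62 to 0.42, -0.70 to 0.11 and -0.55 to 0.20. That of the brighter Snhg11 probe set includes its severity difference (-0.65). Under mild stress MSM differed from MSS by -0.019, 0.13 and 0.12, and under severe stress SSM differed from SSS by -0.10, -0.29 and -0.17, none past the threshold (0% of probe sets passed in either, and 2.59% and 9.5% had an unadjusted p under 0.05). The SSM and SSS difference of Malat1 was -0.52 without SSS replicate 1 and 0.17 without SSS replicate 3. For the brighter Snhg11 probe set it was -0.55 without SSS replicate 1 and -0.14 without SSS replicate 3, and for the dimmer -0.27 without SSS replicate 1 and -0.029 without SSM replicate 2. On SS 8, the SS number that holds an array of each, SSM replicate 1 was below SSS replicate 3 by 0.51 for Malat1 (10.70 against 11.21), and by 0.56 and 0.094 for Snhg11. The interaction of morphine with severity was -0.082 (SE 0.34), -0.42 (SE 0.27) and -0.29 (SE 0.25), with 0% of probe sets past the threshold and 3.66% at an unadjusted p under 0.05 (limma, adjusted p = 0.987, 0.961 and 0.961). With single arrays left out, the Snhg11 interactions ranged from -0.67 (without SSS replicate 1) to -0.27 (without SSS replicate 3) and from -0.43 (without MSM replicate 1) to -0.15 (without SSM replicate 2).

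The spread within groups was wide for both genes, for Malat1 through 1 array. The SD left after subtracting group means was 0.35 for Malat1, larger than in 98.6% of all probe sets, and 0.27 and 0.25 for Snhg11, larger than in 97.4% and 96.8% (median of all probe sets 0.10). Among the 402 probe sets whose mean lay within 0.5 of that of Malat1, 99% had a smaller SD. Without SSS replicate 1 the SD of Malat1 was 0.15, larger than in 83.7% of all probe sets, and those of Snhg11 were 0.20 (93%) and 0.26 (96.6%), against a median of 0.10.

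Malat1 and Snhg11 were correlated over all arrays. Within groups, the correlation of Malat1 with the brighter Snhg11 probe set rested largely on SSS replicate 1. That with the dimmer did not become smaller without this array. Over the 15 arrays Pearson's r between Malat1 and the brighter Snhg11 probe set was 0.897 and Spearman's rho 0.814 (two-sided permutation p = 1e-05, the smallest that the permutations can give, and 3.7e-04; adjusted over 3 pairs, 1.5e-05 and 3.7e-04). Without the 2 arrays farthest from the Malat1 median, SSS replicate 1 and SSM replicate 2, r was 0.878 (permutation p = 3.2e-04). With the dimmer probe set r was 0.80 and rho 0.896 (permutation p = 1.7e-04 and 1e-05; adjusted, 1.7e-04 and 3e-05), and r was 0.78 without the same arrays. Between both Snhg11 probe sets r was 0.885 and rho 0.893 (permutation p = 1e-05 and 2e-05; adjusted, 1.5e-05 and 3e-05). These permutations moved values freely between groups. Their p-values therefore also reflect group differences that the probe sets share, not only likeness from array to array. After group means were subtracted, r was 0.793 between Malat1 and the brighter Snhg11 probe set (exact permutation within groups, p = 0.0359, adjusted 0.0359) and 0.513 with the dimmer (exact p = 0.00399, adjusted 0.012). Between both Snhg11 probe sets it was 0.664 (exact p = 0.0166, adjusted 0.0249). Without SSS replicate 1 these within-group values were 0.468, 0.632 and 0.684 (exact permutation p = 0.274, 0.0475 and 0.0644; adjusted, 0.274, 0.0966 and 0.0966), so none passed the threshold after adjustment. Within the 6 severe-stress arrays r between Malat1 and the brighter Snhg11 probe set was 0.898 (exact permutation p = 0.00833, adjusted 0.025). These arrays pool both drugs and include SSS replicate 1, and r was not computed for them without it. Within the 9 others r was 0.498 (exact permutation p = 0.169, adjusted 0.169). With the dimmer probe set it was 0.627 in the severe-stress arrays (exact permutation p = 0.19, adjusted 0.21) and 0.647 in the others (exact p = 0.0589, adjusted 0.0884). The difference between these subsets was not tested.

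**Figure D3:**
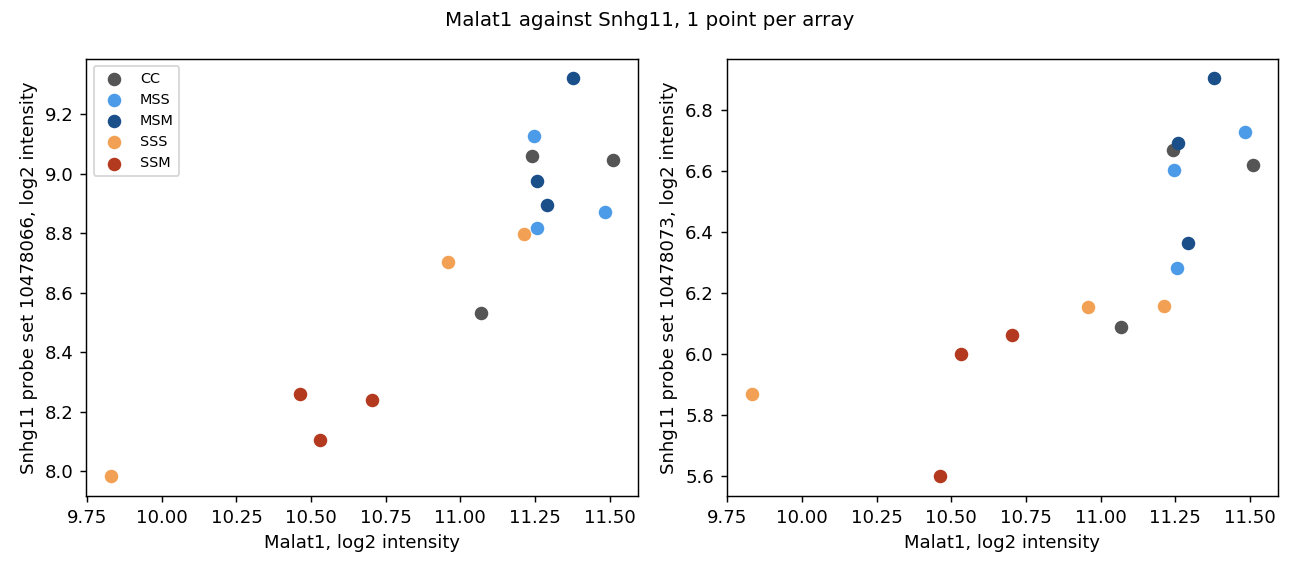
Log2 intensity of Snhg11 (vertical axes, brighter probe set left, dimmer right) against Malat1 (horizontal axes), with 1 point per array coloured by group. Pearson's r over the 15 arrays is 0.897 on the left and 0.80 on the right, and SSS replicate 1 lies at the lower left of the left panel.

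The genes most like Malat1 were found by Pearson's r over the 15 arrays after group means were subtracted, among 9710 genes brighter than the median. They were Leng8 (r = 0.957), Meg3 (0.937), an imprinted noncoding RNA of the Dlk1 to Dio3 cluster that is retained in the nucleus, Pabpn1 (0.936), a nuclear poly(A)-binding protein, Pnn (0.934), a nuclear speckle protein, and Rsrp1 (0.931). For Snhg11 they were again Meg3 (0.934), then Pagr1a (0.923), Dus3l (0.899), a tRNA dihydrouridine synthase, Ttc14 (0.892) and the zinc finger gene Zfp445 (0.886). Malat1 and Snhg11 ranked 48 and 43 in each other's order. The arrays were scaled together and differ in tissue makeup, and these values are descriptive. The likeness to Malat1 rested largely on SSS replicate 1. Without it r was 0.777 for Leng8, 0.677 for Meg3, 0.631 for Pabpn1, 0.778 for Pnn and 0.59 for Rsrp1, and between 24 and 242 other genes had a higher r than these. For Snhg11 r without that array was 0.913 for Meg3, still the highest of the 9710, and 0.806 to 0.878 for the 4 others, with 3 to 22 genes higher. In the severity contrast Leng8 differed by -0.64 (SE 0.14, limma, adjusted p = 0.0953), Rsrp1 by -0.42 (SE 0.083, adjusted p = 0.0790), Meg3 by -0.60 (SE 0.13, adjusted p = 0.105) and Ttc14 by -0.42 (SE 0.10, adjusted p = 0.119). Zfp445 differed by -0.19 (SE 0.043, adjusted p = 0.106), Pagr1a by -0.21 (SE 0.071, adjusted p = 0.263) and Dus3l by -0.12 (SE 0.051, adjusted p = 0.349). None of these genes passed. Without SSS replicate 3, Leng8 and Rsrp1 passed (limma, adjusted p = 0.0299 and 0.0413), and Rsrp1 also without SSS replicate 1 (adjusted p = 0.0472).

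Nuclear speckle and SR protein genes code for the proteins that gather where Malat1 does, among them splicing factors rich in serine and arginine. In the severity contrast 0 of 21 measured genes (of 22 listed) passed in either direction. Their median difference was -0.14, against 0.035 over all probe sets. Lower at an unadjusted p under 0.05 were 12 of the 21, where 3.2% of all probe sets were, and 1 was higher, where 9.19% were. Tra2a, a splicing activator, was 8.61 ± 0.19 in MSS and 8.51 ± 0.094 in MSM against 8.07 ± 0.37 in SSS and 7.92 ± 0.040 in SSM (n = 3 each), a difference of -0.56 (SE 0.10, limma, adjusted p = 0.0763). Son, the large scaffold protein of the speckle, differed by -0.25 (SE 0.047, adjusted p = 0.0763), Srrm2, its other main scaffold, by -0.34 (SE 0.073, adjusted p = 0.0954) and the SR protein gene Srsf5 by -0.31 (SE 0.067, adjusted p = 0.0978). All severe-stress arrays lay below all mild-stress arrays in 8 of the 21 genes, these 4 and Pnn (-0.24, SE 0.059) among them, against 0.468% of all probe sets. They lay above in 1 gene, Rnps1, named after its values were seen. The share of all probe sets that lay above without overlap was not counted. Son passed after quantile normalization (limma, adjusted p = 0.0357) and with array weights (adjusted p = 0.0312), and Tra2a without SSS replicate 3 (adjusted p = 0.0216). Son and Srsf5 also passed without SSM replicate 1 and MSM replicate 3 after quantile normalization (adjusted p = 0.0488 and 0.0482).

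Paraspeckle proteins, the partners of Neat1, lay close to the other genes. Of 15 measured genes (of 20 listed) 0 passed and the median difference was 0.021 (-0.013 after quantile normalization). Nono differed by 0.11 (SE 0.038, limma, adjusted p = 0.282), Ewsr1 by -0.12 (SE 0.048, adjusted p = 0.320), Sfpq by -0.10 (SE 0.051, adjusted p = 0.441) and Nudt21, a cleavage factor subunit, by 0.12 (SE 0.059, adjusted p = 0.447). The 4 splicing factors known to bind Miat (Sf1, Qk, Celf3 and Srsf1) had a median of -0.016, and 0 passed (lowest adjusted p = 0.493). That median was -0.062 after quantile normalization, and -0.082 without SSM replicate 1 and MSM replicate 3 as well.

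Other long noncoding RNAs were measured for 16 of 38 listed genes. None passed (0 of 16), and 10 were below 0, where 30.5% of all probe sets were. The median was -0.065, and -0.15 with dim rows left out. Lower at an unadjusted p under 0.05 were 7, and 0 were higher, against 3.2% and 9.19% of all probe sets. The largest differences belonged to Rian and Meg3, neighbours in the imprinted Dlk1 to Dio3 cluster. Rian was 8.32 ± 0.25 in MSS and 8.35 ± 0.37 in MSM against 7.66 ± 0.38 in SSS and 7.65 ± 0.25 in SSM (n = 3 each), a difference of -0.68 (SE 0.14, limma, adjusted p = 0.0920, and 0.0423 without SSS replicate 3). Meg3 was 11.96 ± 0.23 in CC, 12.07 ± 0.13 and 12.05 ± 0.092 under mild stress (MSS, MSM), and 11.55 ± 0.55 and 11.38 ± 0.035 under severe stress (SSS, SSM). Firre, a nuclear RNA that organises chromosome contacts, differed by -0.45 (SE 0.13, adjusted p = 0.166), and Snhg5, another small nucleolar RNA host, by -0.24 (SE 0.057, adjusted p = 0.111).

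Genes for the enzymes that form the 3′ ends of Malat1 and Neat1, the RNase P subunits and RNase Z, lay on the other side. Of 9 measured (of 11 listed) 0 passed, and 8 were above 0, where 69.5% of all probe sets were. The median was 0.15, and 0.090 without SSM replicate 1 and MSM replicate 3 after quantile normalization. Higher at an unadjusted p under 0.05 were 6 of the 9, where 9.19% of all probe sets were. Between SSM and MSM 6 were higher at it (median 0.195, against 0.061 over all probe sets). In that comparison 14.5% of all probe sets had such a p in either direction, 2.59% being lower. Between SSS and MSS 0 were higher at it (median 0.059, against 0.0072), where 3.07% of all probe sets had such a p in either direction. The RNase P subunit genes Pop7 0.19 (SE 0.043, limma, adjusted p = 0.101), Rpp40 0.19 (SE 0.053, adjusted p = 0.163), Rpp30 0.15 (SE 0.056, adjusted p = 0.302) and Pop4 0.13 (SE 0.051, adjusted p = 0.327) had the smallest p-values. Genes of nuclear RNA decay and nuclear export had a median of -0.0074 (0.022 after arrays were centred on their medians, and -0.046 without SSM replicate 1 and MSM replicate 3 after quantile normalization), with 0 of 15 measured (of 16 listed) past the threshold. Among them Pabpn1 differed by -0.34 (SE 0.080, adjusted p = 0.111), Zfc3h1, of a complex that feeds RNA to the nuclear exosome, by -0.25 (SE 0.064, adjusted p = 0.137), the exosome subunit gene Exosc4 by 0.16 (SE 0.062, adjusted p = 0.305) and the export factor gene Thoc2 by -0.12 (SE 0.047, adjusted p = 0.332).

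**Figure D4:**
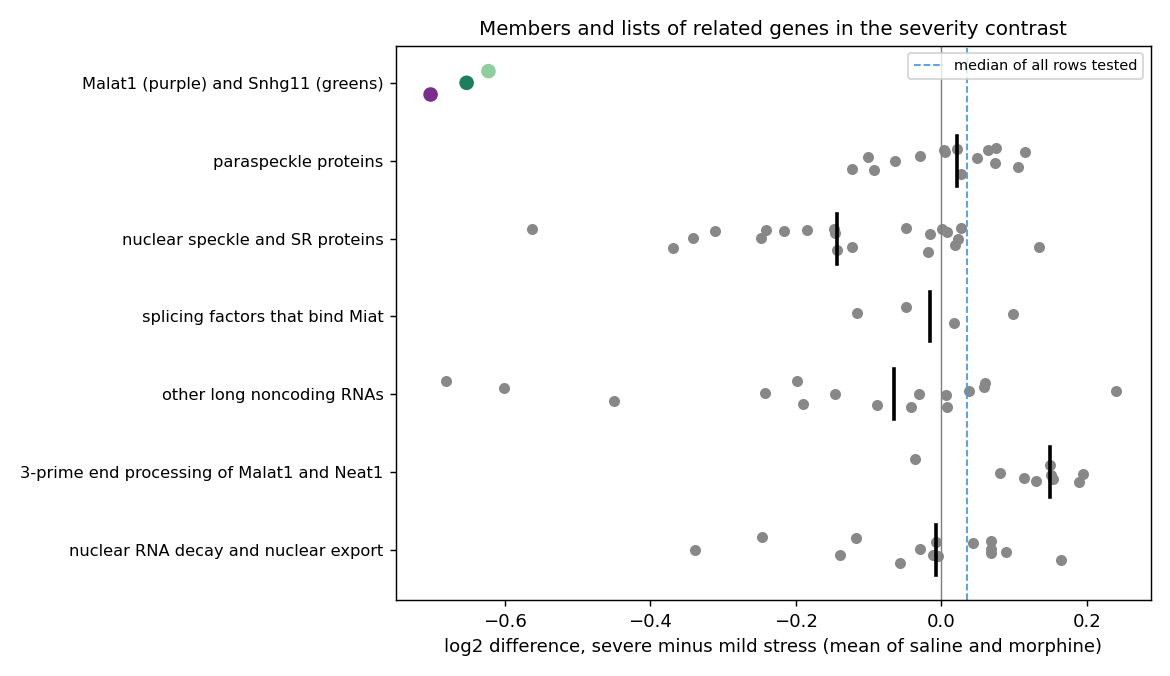
Log2 difference between severe and mild stress, averaged over saline and morphine (horizontal axis), for the member probe sets in the top row and for each gene of 6 lists, 1 point per gene, with the list median as a black bar. The dashed line is the median of all probe sets (0.035), the nuclear speckle list has its median at -0.14 and the 3′ end processing list at 0.15.

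The genes next to Malat1 and Snhg11 in the genome gave smaller differences. Of the 8 nearest measured neighbours, 2 on each side, 0 passed in the severity contrast. Znrd2 near Malat1 differed by 0.15 (SE 0.063, limma, adjusted p = 0.355), and Snhg17, the noncoding RNA gene beside Snhg11, by -0.20 (SE 0.078, adjusted p = 0.326). The 6 others lay between -0.063 (Ralgapb) and 0.21 (Lbp), each with an interval that includes 0.

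Markers of the cell types in the sample were set beside these differences, since Snhg11 is known mainly from neurons. The mean log2 intensity of 13 glutamatergic neuron markers (of 14 listed) was 9.56 to 9.66 (MSS) and 8.74 to 9.63 (MSM) under mild stress, and 9.63 to 9.70 (SSS) and 9.38 to 9.70 (SSM) under severe stress, with a median severity difference of 0.13. That of 13 interneuron markers (of 13) was 8.39 to 8.54 and 8.50 to 8.56 in the mild groups, and 8.44 to 8.45 and 8.57 to 8.87 in the severe groups, with a median severity difference of 0.036. Between SSS and MSS the median difference was 0.045 for the glutamatergic list and -0.069 for the interneuron list. Between SSM and MSM it was 0.23 and 0.20, and MSM replicate 3 had the lowest glutamatergic mean (8.74). The 11 thalamus markers (of 11) had a median severity difference of -0.17, with a mean of 7.06 to 8.39 in MSM, where replicate 3 was highest, 7.02 to 7.40 in MSS, 6.97 to 7.08 in SSS and 7.13 to 7.25 in SSM. Oligodendrocyte precursor markers (9 of 9) had a median of -0.12, with means of 8.09 to 8.51 in both mild-stress groups together and 7.94 to 8.23 in both severe-stress groups. Choroid plexus markers had a median of 0.29 (12 of 12 above 0) and striatum markers one of 0.18 (7 of 8), where 69.5% of all probe sets were above 0. The medians of astrocyte, myelin, microglia, endothelial and blood markers were -0.0065, -0.081, 0.067, -0.021 and 0.21. The blood value rests on 2 measured genes of 7 listed. The part of these cells in the results was not tested beyond the values without MSM replicate 3 and SSM replicate 1 given above. Those values kept MSM replicate 2, whose striatum mean was 7.60. In all 17 lists 0 genes passed the threshold in the severity contrast.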

How the data were processed

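Hippocampal RNA of 15 pups was hybridised to 1 array each. The authors deposited log2 intensity values per probe set, made with RMA per the submitters' processing notes. The sources used here do not name the software that ran it. Of 35557 rows, 21789 had 1 gene symbol in the platform annotation, 1621 several and 12147 none here. All 21789 were fitted with limma 3.58.1 in R 4.3.3 (a mean per group, all 5 groups sharing the spread, two-sided, Benjamini-Hochberg adjusted over all of them, threshold 0.05) in 11 contrasts and an F-test. The procedure was tested on simulated data. Correlations used permutations in Python 3.11.15 with NumPy 2.4.6. Arrays have no read depth, so the 3 per group limit the precision.

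The members, gene lists and tests were chosen with earlier results of these data known, so the lists give no independent support. Named genes are all probe sets of the 4 genes, the 5 genes most correlated with each, up to 4 genes of each pathway list with the smallest p for severity, and the 2 nearest measured genes on each side; lists and likeness used the brightest probe set of a gene. Gene order and promoters came from RefSeq's GRCm38.p6 tables. Alternatives changed the scaling, the rows tested, the filter on dim rows, the prior, the weights, the blocks and the arrays included.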

Additional observations from a re-analysis of the deposited data

How the results depend on the processing

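In the severity contrast the difference stayed negative in all 3 probe sets under every alternative run. Alternatives that changed only the rows tested, the prior, the SS block or the CC arrays cannot change this difference. Leaving out each array in turn gave -0.84 to -0.49 for Malat1, -0.73 to -0.52 for the brighter Snhg11 probe set and -0.69 to -0.55 for the dimmer, and 0 calls. The other alternatives called 1 member probe set, the dimmer Snhg11 probe set with array weights (-0.68, limma, adjusted p = 0.0449). Calls over all probe sets were 5 with the values as deposited, 20 after quantile normalization, 43 after centring arrays on their medians, 2 with the brightest probe set per gene, 67 with every row, 2 with dim rows left out, 12 with an intensity trend, 1 with the SS number as a block, 59 with array weights and 1 with only the treated groups. They were 29 without SSM replicate 1 and MSM replicate 3 after quantile normalization, 3 without SSS replicate 1 and SSM replicate 3 (both chosen after seeing the data), and 1 to 25 with single arrays left out (25 without SSS replicate 3, 10 without SSM replicate 3). Between SSM and MSM, 0 to 2 member probe sets passed when single arrays were left out. The 2 passed without SSS replicate 1, where 13 of all probe sets did.

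Small differences changed sign, and the cause was not tested. With array weights the Malat1 interaction was 0.012. Without SSM replicate 1 and MSM replicate 3, MSM minus MSS was -0.0032 and -0.0075 for Snhg11, and -0.019 and -0.014 with quantile normalization as well. With single arrays left out, Malat1 ranged from -0.047 to 0.17 for MSS minus CC, -0.066 to 0.15 for MSM minus CC, -0.061 to 0.058 for MSM minus MSS, -0.52 to 0.17 for SSM minus SSS, -0.27 to 0.076 for morphine and -0.50 to 0.19 for the interaction. The brighter Snhg11 probe set ranged from -0.12 to 0.15 for MSS minus CC and -0.0032 to 0.22 for MSM minus MSS. The dimmer ranged from -0.11 to 0.20, -0.010 to 0.26 and, for morphine, -0.091 to 0.045.

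MSM and CC share H numbers in their titles, whose meaning is not stated. With that number as a replicate block, MSM minus CC was 0.036 for Malat1 and 0.18 and 0.19 for Snhg11 (limma, adjusted p = 0.999 each), and the calls stayed at 0 over all probe sets. Deviations of same-numbered arrays correlated at -0.383, -0.0718 and -0.161, and no array correlated best with its own number, so the arrays were not treated as paired. Within groups, the correlations of Malat1 with Snhg11 (0.468 and 0.632) and between the Snhg11 probe sets (0.684) no longer passed without SSS replicate 1, an alternative chosen after seeing the data. Over all arrays, with single arrays left out, they ranged from 0.885 to 0.91, 0.778 to 0.853 and 0.86 to 0.90.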

Other observations

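A further probe set, 10598069, is annotated to both Malat1 and Ramp2 and so was not counted as Malat1. It was bright and nearly constant, 13.03 to 13.19 over the 15 arrays. Its severity difference was 0.0030 (SE 0.037, limma over all 35557 rows, adjusted p = 0.985), and its Pearson's r with the Malat1 probe set over the arrays was 0.19, given as a description.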
